A study of Mus musculus with 8 samples.

Results

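Translation initiation and elongation factors were followed across 8 RNA sequencing libraries of C2C12 cells, mouse skeletal myoblasts in culture that form myotubes in low serum. The members are all genes whose symbol begins with Eif1 to Eif6 or with Eef1 or Eef2, leaving out the Eif2ak kinases and pseudogenes marked -ps, which gave 63 of 23420 gene rows. Of these, 58 passed the filter on low counts and were tested among 13167 genes. The 5 that did not pass are Eef1a2, Eif2s3y, Eif3j1, Eif3j2 and Eif4e1b. The name rule also took in Eif2c1 to Eif2c4, 4 older symbols of the Argonaute genes Ago1 to Ago4, which act in small RNA silencing, so counts are also given without them.

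Each group held 2 libraries. Cells labelled WT were compared with cells overexpressing AUF1, the product of Hnrnpd and a protein that binds AU-rich mRNA, and all cells had been grown with 10% FBS and then kept for 48 h in medium with 2% horse serum. From each genotype, total RNA and cytoplasmic RNA of heavy polysomes (mRNA carrying many ribosomes) were sequenced, which gave the groups WT total, AUF1 total, WT polysome and AUF1 polysome. The sources used here do not say if WT carries an empty vector or if the AUF1 line is clonal, and line and transgene effects cannot be told apart. Nor do the labels state that libraries of one group are from different cultures: every p-value reflects the scatter of these libraries alone, which may be technical.

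Initiation begins when eIF2, bound to GTP, brings the initiator tRNA to the small ribosomal subunit together with eIF1, eIF1A, eIF3 and eIF5. The eIF4 factors bind the cap of the mRNA and unwind its leader, and eIF2B reloads eIF2 with GTP after each round. In elongation, eEF1A delivers each aminoacyl-tRNA and eEF2 moves the ribosome along by 1 codon. The mRNAs of elongation factors and of several initiation factors are known as terminal oligopyrimidine mRNAs: they start with a C followed by a run of C and T, and their loading on ribosomes depends on the growth signals that reach mTORC1.

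Because of that known feature, the bases around the annotated transcript start are shown for 9 members from both ends of the polysome results. Each window runs from 10 bases before to 20 bases into the transcript, 5′ to 3′ on the gene's strand (RefSeq starts on GRCm38.p6), and capitals mark every C followed by at least 4 pyrimidines. The first 4 have such a run and were lower on polysomes than in total RNA, and the next 2 have none and were lower too. The 2 after them have none and stood higher, and Eef1e1 has one and stood slightly higher. A run was marked anywhere in the window. In none of these genes does it begin at the annotated start itself, and that of Eef2 reaches the window's end. The marks therefore do not show that an mRNA is of the terminal oligopyrimidine kind. The window and the 9 genes were chosen after their sequences and values had been seen, and no start site was measured here.
Eef1a1 (chr9:78481705-78481734, minus strand): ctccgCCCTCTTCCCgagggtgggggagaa
Eef2 (chr10:81176621-81176650, plus strand): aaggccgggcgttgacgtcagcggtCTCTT
Eif3f (chr7:108934405-108934434, plus strand): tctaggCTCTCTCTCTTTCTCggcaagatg
Eif3l (chr15:79075213-79075242, plus strand): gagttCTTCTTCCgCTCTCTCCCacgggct
Eef1b2 (chr1:63176821-63176850, plus strand): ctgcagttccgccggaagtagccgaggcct
Eif3c (chr7:126566347-126566376, minus strand): ctgctcagagggactcggcagcttagctgg
Eif1ax (chrX:159372168-159372197, plus strand): ggaggagggcggggagaagccccgcccgct
Eif5 (chr12:111538091-111538120, plus strand): cgacgtgcatgcgagccaatgacaagagaa
Eef1e1 (chr13:38659009-38659038, minus strand): gtcctagctgtgcaggccccgCCTCCCTag

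Such a run lay somewhere in the window of 1 or more annotated starts of 16 of the 42 tested members that have a RefSeq start and are not Argonaute genes (38.1%). It was present in 42.2% of all tested genes with a RefSeq start, and in 35.8% of all 32851 start windows taken singly. Members with a run had a median log2 difference between polysome and total RNA of -0.34, and members without one of -0.04. Over all tested genes the corresponding medians were 0.00 and 0.01. Counts differed less, with 11 of 16 members with a run below 0 and 16 of the other 26. Of the members with a run, Eef1e1, Eif1ad, Eif4e, Eif4e2 and Eif4enif1 lay above 0. Both kinds of member reached the lowest values, since Eif3f with a run stood at -0.98 and Eif3c without one at -0.97.

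Libraries held 25281224 to 34917660 counts assigned to genes, of which the 63 members made up 1.44% to 2.33%. Hnrnpd was higher with AUF1, by 2.37 on the log2 scale in total RNA (edgeR adjusted p = 0.0413) and by 2.04 on polysomes (0.0608, which missed the threshold of 0.05). The summed level of 8 markers of myoblasts and early myotubes was 3780 to 5090 CPM (counts scaled by library size) in the 4 WT libraries and 17000 to 23900 CPM in the 4 AUF1 libraries. Acta1 was the largest part, and Acta1, Des, Myog, Tnnt1 and Myh3 were higher with AUF1 without overlap. Myod1 overlapped (197 and 273 CPM in WT total, 338 and 266 in AUF1 total). Myf5 was lower with AUF1 within each replicate number (20.7 and 46.2, 13.2 and 25.7). Chrna1 differed widely between replicates 1 and 2 (924 and 111 in WT total, 2570 and 184 in AUF1 total). The summed level of 4 fibroblast markers was 18 to 73.1 CPM in WT and 4.35 to 8.48 CPM with AUF1. Endothelial, immune and adipocyte marker sums stayed at or under 1.09 CPM, with the immune marker Ptprc at 0 or 1 counts and the adipocyte marker Plin1 at 0 in every library, and the neuronal list (33.6 to 103 CPM) consisted almost wholly of Tubb3. The replicate number in the titles also split the libraries. Differences between numbers 1 and 2 correlated across genes between all pairs of groups (Pearson's r 0.62 to 0.81 over 13167 genes, which are not independent replicates), so results are given without and with the number as a term in the fit, called the block below.

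WT polysome replicate 1 stood apart. It held 106 genes with at least 10 counts that had at most 2 counts over the other 7 libraries together, against 0 to 2 such genes in any other library. The Y-linked Eif2s3y had 32 counts there and 0 elsewhere, and the muscle and neuron isoform Eef1a2 had 125 counts there and 0 or 1 elsewhere. What these counts come from was not tested. Both genes are among the 5 members left out of the tests.

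**Figure D1:**
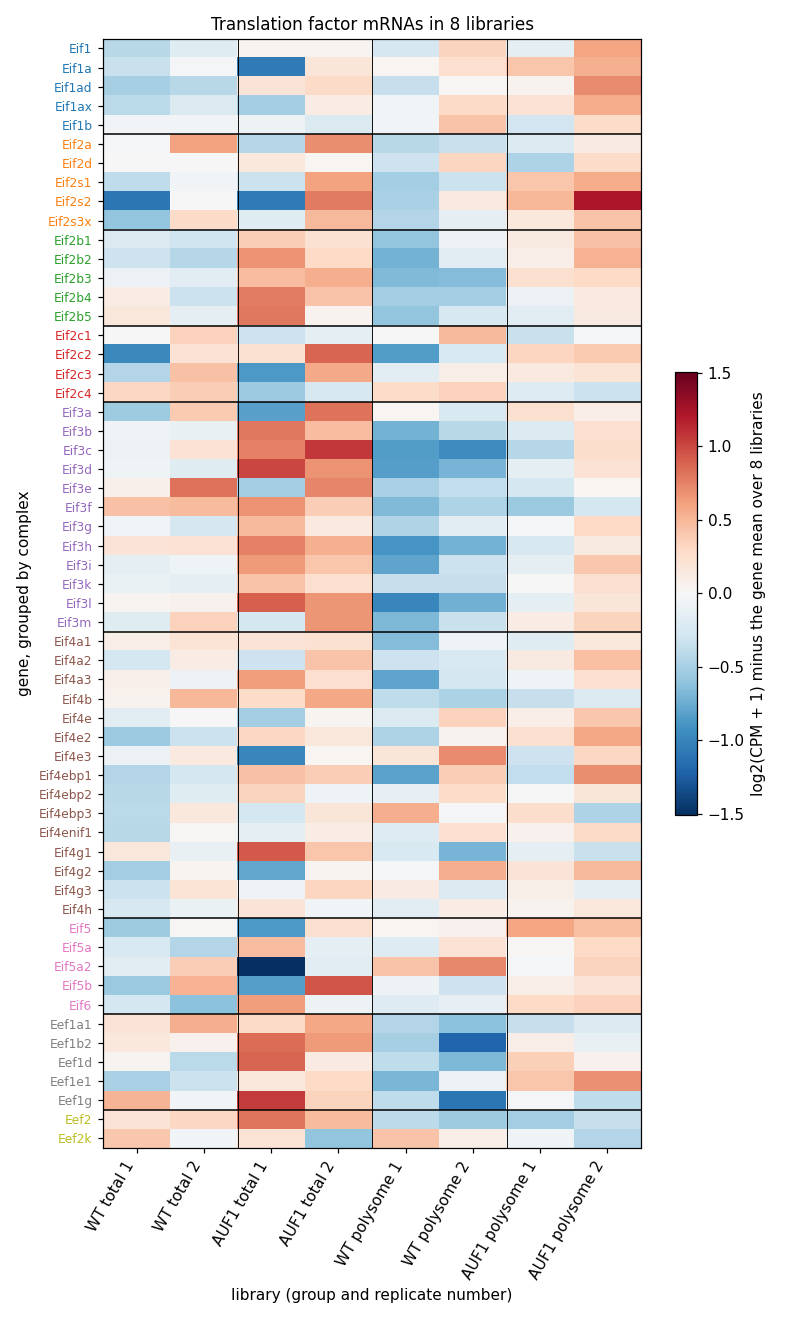
Level of 58 translation factor mRNAs in 8 libraries, as log2(CPM + 1) minus the gene's mean over the libraries (red higher, blue lower), with genes in rows grouped by complex and libraries in columns. In the Eif3 rows the AUF1 total libraries are mostly red and the WT polysome libraries mostly blue, while Eif3a, Eif2s2 and Eif5b differ clearly between numbers 1 and 2 of total RNA.

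The translocation factor Eef2 and the tRNA carrier Eef1a1 were the most abundant mRNAs among the members. Levels between genes were compared as CPM per kb of exon, with exon lengths from the GENCODE M21 annotation of mm10. Eef2 (chromosome 10, 81176631 to 81182498), the factor that moves the ribosome, averaged 1609 CPM per kb in WT total RNA, and Eef1a1 (chromosome 9, 78478449 to 78489151), which delivers aminoacyl-tRNA, averaged 1526 CPM per kb. The order of these 2 cannot be read, since 60.6% of the 50-base stretches of Eef1a1 transcripts also occur in other annotated genes and no source used here says how shared reads were handled. Eif5a, which helps ribosomes through difficult peptide bonds, followed at 265 CPM per kb, then the eIF3 subunit Eif3h and the exchange subunit Eef1b2 at 239 each and the helicase cofactor Eif4b at 201. At the low end stood the Argonaute genes Eif2c3 at 1.16 CPM per kb and Eif2c4 at 1.99. After them came Eif5a2 at 4.52, the eIF2 gamma subunit Eif2s3x at 5.22, the eIF2B subunit Eif2b3 at 6.33 and the eIF4E-binding protein Eif4ebp3 at 7.14.

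Subunits of 1 complex did not stand at 1 level. Among the 12 tested eIF3 subunits, WT total means ran from 36.2 CPM per kb for Eif3m to 239 for Eif3h. In the eIF2B complex, Eif2b2 (72.9) stood far above Eif2b3 (6.33), and in the eIF1 group Eif1 (145) stood above Eif1ax (16.6). Eif3m, Eif3h, Eif2s3x, Eif4ebp3 and Eif1 share 40%, 26.2%, 36.2%, 65.5% and 31.6% of their 50-base stretches with other genes, so their levels are uncertain. These ratios rest on the full exon length of each gene and not on the transcripts used in these cells.

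**Figure D2:**
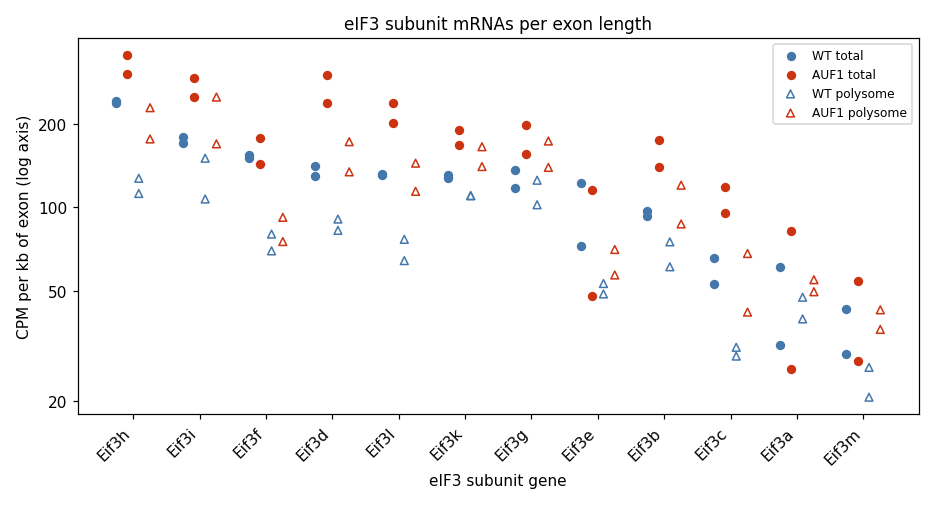
Level of the 12 tested eIF3 subunit mRNAs in each library as CPM per kb of exon on a log axis, ordered by the WT total mean, with filled circles for total RNA, open triangles for heavy polysomes, blue for WT and red for AUF1. Eif3h stands highest and Eif3m lowest in WT total RNA, and the lowest points of Eif3a and Eif3e are from 1 AUF1 total library.

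The comparison of heavy polysomes with total RNA asks which mRNAs take a larger or smaller share of the RNA that carries many ribosomes. The lowest values were those of 4 elongation factor mRNAs (Eef1a1, Eef1b2, Eef1g and Eef2) and 4 eIF3 subunit mRNAs (Eif3c, Eif3f, Eif3h and Eif3l), with log2 differences from -0.98 to -0.82. These 8 passed with the block, and no member passed the edgeR test without it. Over the 58 members 24 were above 0 (29 without WT polysome replicate 1), and the median was -0.06 (0.01 over all genes, and 0.06 for the members without WT total replicate 2). Averaged over the 2 genotypes, 4 polysome libraries against 4 total libraries, 0 of 58 members were called at an adjusted p under 0.05, as against 0.00759% of all tested genes. At an unadjusted p under 0.05 there were 13 members (22.4%) and 6.71% of all genes. With the block 8 members were lower and 0 higher, as against 1.48% of all genes lower. With a block fitted separately within total RNA and within polysome RNA, chosen after the data were seen, 25 members passed, as against 17.7% of all genes. DESeq2 without the block called 8, all lower, as against 1.75% of all genes in either direction. All values are shares of a library, and in bulk RNA fewer cells of a type and less RNA per cell cannot be told apart.

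The translocation factor Eef2 stood at 4770 and 5170 CPM in WT total, 7260 and 5800 in AUF1 total, 3170 and 2860 in WT polysome and 2900 and 3260 in AUF1 polysome (replicates 1 and 2 in each case). Every polysome library was below every total library. The log2 difference was -0.90 ± 0.16 (SE), with an edgeR adjusted p of 0.335 without the block and 0.0387 with it (DESeq2 0.000185). Eef2k, the kinase that inhibits eEF2, had a difference of -0.01 ± 0.26.

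Eef1a1 stood at 2720 and 3470 CPM in WT total, 2910 and 3570 in AUF1 total, 1740 and 1540 in WT polysome and 1860 and 2050 in AUF1 polysome. Again no polysome library reached the lowest total library, and the log2 difference was -0.82 ± 0.17 (edgeR adjusted p = 0.335, and 0.0482 with the block). Of the subunits that recharge eEF1A with GTP, Eef1b2 and Eef1g passed with the block and Eef1d did not. Eef1b2 stood at 481 and 448 CPM in WT total and 304 and 187 in WT polysome, and with AUF1 at 774 and 670 in total and 460 and 398 in polysome RNA. Its difference was -0.83 ± 0.21, lower within each genotype, with overlap between genotypes (adjusted p = 0.441, and 0.0411 with the block). Eef1g differed by -0.96 ± 0.29 (0.538, and 0.0337 with the block), although 64.3% of its 50-base stretches occur in other genes, and Eef1d by -0.34 ± 0.24. Eef1e1, a component of the complex of tRNA synthetases rather than of the eEF1B exchange complex, was the 1 tested Eef1 member above 0, at 0.19 ± 0.21.

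All 12 tested eIF3 subunits, which form the scaffold on the small ribosomal subunit, had a difference below 0, with a median of -0.59 over the subunits and 0.01 over all tested genes. That count was 12 of 12 under TMM, RLE and upper-quartile scaling alike, and 11 of 12 with the block, and the median was -0.78 within number 1 and -0.58 within number 2. Eif3f (chromosome 7, 108934417 to 108942951) stood at 378 and 388 CPM in WT total, 445 and 359 in AUF1 total, 175 and 201 in WT polysome and 189 and 231 in AUF1 polysome. The groups did not overlap, and the log2 difference was -0.98 ± 0.17 (edgeR adjusted p = 0.335, and 0.0297 with the block). Eif3h went with it at -0.85 ± 0.17 (0.335, and 0.0387 with the block), as did Eif3c at -0.97 ± 0.22 (0.363, and 0.0354) and Eif3l at -0.83 ± 0.18 (0.335, and 0.0411). Eif3d, the subunit that can itself bind a cap, had -0.72 ± 0.18 and passed with DESeq2 (0.0478) but not in either edgeR fit (0.427 and 0.0704). Eif3g (-0.17 ± 0.19), Eif3k (-0.23 ± 0.16) and Eif3a (-0.07 ± 0.40) were the closest to 0.

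Values in the eIF4 group lay on both sides of 0, and no member of it passed in either edgeR fit or with DESeq2. The cofactor of the helicase, Eif4b, stood at 700 and 953 CPM in WT total, 818 and 1010 in AUF1 total, 518 and 485 in WT polysome and 528 and 585 in AUF1 polysome, lower without overlap by -0.72 ± 0.18 (edgeR adjusted p = 0.445, and 0.0669 with the block). The scaffold Eif4g1 was the other one without overlap, at -0.71 ± 0.21 (0.53, and 0.0551 with the block). Its relative Eif4g2, which lacks the eIF4E-binding part, lay on the other side of 0. It stood at 1250 and 1860 CPM in WT total, 1050 and 1860 in AUF1 total, 1790 and 2640 in WT polysome and 2070 and 2540 in AUF1 polysome, a difference of 0.59 ± 0.27 with overlapping groups (0.82, and 0.0972 with the block). The cap-binding protein Eif4e (0.32 ± 0.23), its repressors Eif4ebp1 (0.06 ± 0.35) and Eif4ebp2 (0.17 ± 0.20) and the helicase Eif4a2 (-0.01 ± 0.23) had values within 2 SE of 0, and so did Eif4a1 (-0.35 ± 0.21), of whose 50-base stretches 65.3% occur in other genes.

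Upstream of these, all 5 eIF1 members had a difference above 0 in each genotype, with averages over the genotypes from 0.22 to 0.55, led in p by Eif1ax at 0.51 ± 0.22 (adjusted p = 0.776). Their median was 0.01 within number 1 and 0.48 within number 2, and Eif1, Eif1ad and Eif1b were below 0 in number 1 with AUF1. The 5 eIF2B subunits, which recharge eIF2, lay between -0.51 (Eif2b4) and -0.03 (Eif2b1), all below 0 under TMM and RLE scaling and 4 of 5 under upper-quartile scaling. Their median was -0.49 within number 1 but 0.00 within number 2, where Eif2b1 (0.22) and Eif2b2 (0.25) were above 0. The catalytic subunit Eif2b5 had -0.45 ± 0.24. Of the eIF2 subunits proper, the alpha subunit Eif2s1 had 0.03 ± 0.25, the beta subunit Eif2s2 0.54 ± 0.48 and Eif2s3x -0.04 ± 0.30, and Eif2a, a separate factor with a similar name, had -0.50 ± 0.31. In the last group, Eif5a2 stood highest at 0.69 ± 0.36, and Eif5, the factor that triggers GTP hydrolysis by eIF2, at 0.51 ± 0.28. Eif5a had 0.17 ± 0.21 and Eif6, which keeps the large subunit from joining too early, 0.14 ± 0.21.

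Counted over members, 6 were lower on polysomes without overlap between the 4 polysome and the 4 total libraries (Eef1a1, Eef2, Eif3f, Eif3h, Eif4b and Eif4g1), as against 4.11% of all tested genes, and 0 were higher, as against 0.957%. Within a genotype, 0 members were called in WT and 0 with AUF1, as against 0% of all genes in each. At an unadjusted p under 0.05 there were 9 members in WT (15.5%, and 2.76% of all genes) and 10 with AUF1 (17.2%, and 3.33%). With the block 0 were called in either, as against 0.0152% of all genes in each. DESeq2 called 0 in WT, as against 0.503% of all genes to which it gave an adjusted p, and 1 with AUF1 (Eef2, lower), as against 0.303%. The calls with the block rest on single libraries. With 1 library left out they were lost in some fits, as were most calls over all genes. In other fits more members passed, and more genes of all kinds. Such a fit leaves 1 library in a group, so its calls are not counted here.

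**Figure D3:**
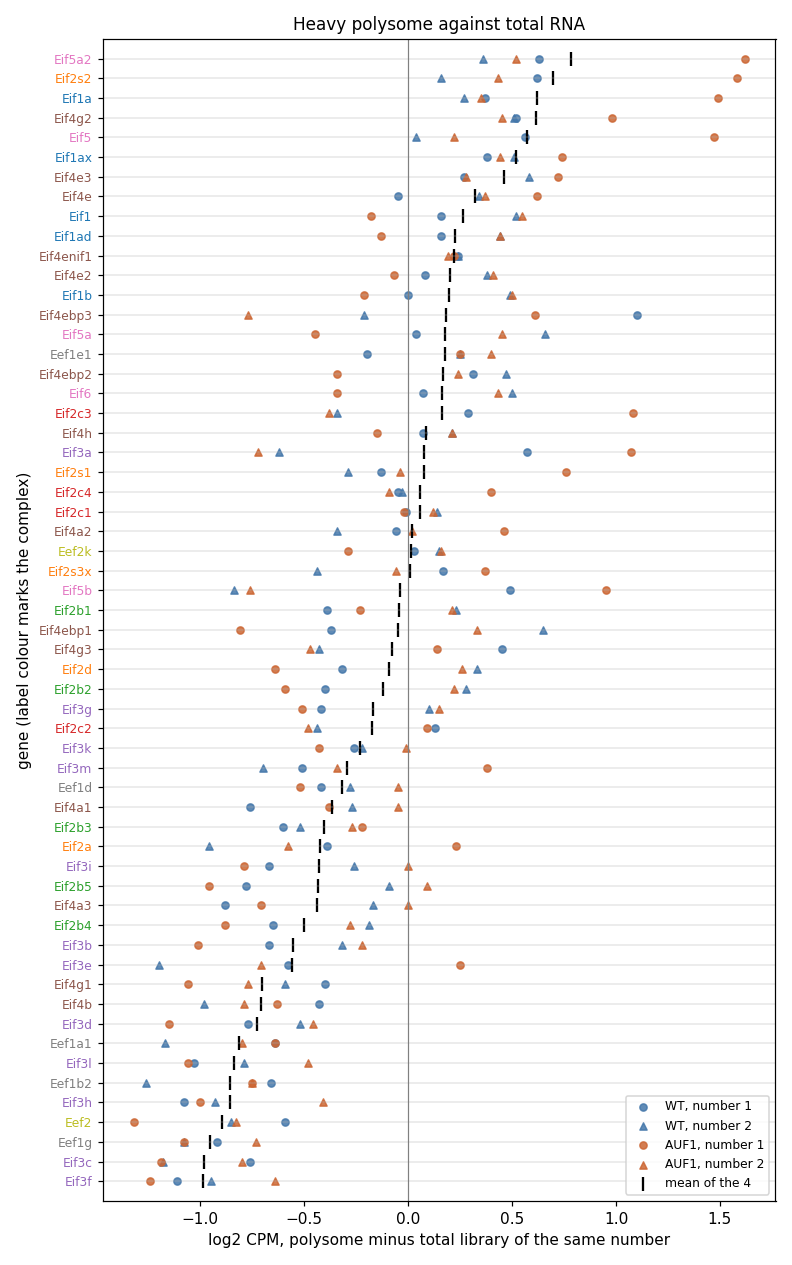
Log2 CPM of the polysome library minus the total library of the same genotype and number, for 58 genes ordered by the mean of the 4 differences (black bar), with blue for WT, orange for AUF1, circles for number 1 and triangles for number 2. Eif3f, Eif3c, Eef1g, Eef2, Eif3h and Eef1b2 have all 4 points below 0, whereas Eif3a and Eif5b have circles on the right of 0 and triangles on the left.

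The comparison of AUF1 with WT asks which mRNAs differ with AUF1 overexpression, once in total RNA and once on heavy polysomes. Most translation factor mRNAs had higher values with AUF1 in both, with log2 fold changes from -0.86 to 0.99 in total RNA and from -0.62 to 1.04 on polysomes, but no member passed the edgeR test without the block. In total RNA 46 of 58 members had a log2 fold change above 0 (79.3%, and 50.2% of all tested genes), with a median of 0.37 (0.00 over all genes). On polysomes 49 of 58 did (84.5%, and 50.1%), with a median of 0.36 (0.00). Without the Argonaute genes the medians were 0.41 and 0.39. The total RNA values rest in part on single libraries of both genotypes. Without WT total replicate 1 the median was 0.09 and 31 of 58 members were above 0. Leaving out AUF1 total replicate 2 gave a median of 0.28 with 34 of 58 above 0. The polysome median was 0.23 without AUF1 polysome replicate 2. Without WT polysome replicate 1 the polysome median was 0.35 with 42 of 58 above 0, while the median of all genes was 0.11. The marker sums given above moved with the same comparison, and their part in it was not tested.

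In total RNA 0 of 58 were called, as against 1.02% of all genes, and 10 had an unadjusted p under 0.05 (17.2%, and 13.7% of all genes). On polysomes 0 were called, as against 0.349%, and 8 had an unadjusted p under 0.05 (13.8%, and 14.1%), so at that level the members' shares lay near those of all genes. With the block 2 members were higher in total RNA, Eif3c and Eif3d, as against 6.99% of all genes higher. On polysomes 6 were higher with the block (Eef1b2, Eef1e1, Eif2b3, Eif2s1, Eif3d and Eif3l), as against 6.7%. With a block fitted within each RNA separately, chosen after the data were seen, 23 members passed in total RNA, as against 27.4% of all genes, and 27 on polysomes, as against 27%. DESeq2 called 1 member in each, Eif3d in total RNA and Eif2b3 on polysomes, as against 6.72% and 6.5% of all genes. Leaving out 1 library changed the calls with the block in both RNAs, among all genes as well as the members. Some of these fits kept none of the calls given here. In some, though not in that without WT polysome replicate 1, Eef1a2 and Eif2s3y passed the low-count filter. The counts of these 2 genes lie almost wholly in that library. A fit of this kind leaves 1 library in a group, so its calls are not counted.

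Counts of groups that did not overlap leaned to higher values with AUF1. In total RNA both AUF1 libraries were above both WT libraries for 28 of 58 members, as against 22.5% of all tested genes, and below for 3 (Eif1b, Eif2c1 and Eif2c4), as against 17.8%. On polysomes both were above for 36 members, as against 23.6%, and below for 4 (Eef2k, Eif2c1, Eif2c4 and Eif5a2), as against 21.3%. Members that share an mRNA class are not independent of each other, so these counts describe the list.

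Eif3d (chromosome 15, 77958998 to 77970813) stood at 294 and 270 CPM in WT total and 621 and 494 in AUF1 total, and at 172 and 189 in WT polysome and 280 and 359 in AUF1 polysome. The AUF1 libraries were above the WT libraries in both RNAs. The log2 fold change was 0.99 ± 0.25 in total RNA (edgeR adjusted p = 0.155, and 0.0248 with the block) and 0.82 ± 0.25 on polysomes (0.223, and 0.0483). Eif3c followed in total RNA at 0.85 ± 0.31 (0.3, and 0.0474), and Eif3l on polysomes at 0.88 ± 0.25 (0.192, and 0.0335). Of the 12 eIF3 subunits, 11 were above 0 in total RNA (10 under upper-quartile scaling) and 12 on polysomes, with medians of 0.47 and 0.65. The exception in total RNA was Eif3e at -0.26 ± 0.46, a subunit whose WT total values of 109 and 184 CPM and AUF1 total values of 72.2 and 173 CPM overlapped.

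Eif2b3 (chromosome 4, 117019402 to 117087306), a subunit of the exchange factor eIF2B, stood at 26.1 and 24.9 CPM in WT total and 38.7 and 41.3 in AUF1 total, and at 17.2 and 17.3 in WT polysome and 33.2 and 34.4 in AUF1 polysome. The polysome means were 17.2 ± 0.0825 and 33.8 ± 0.804 CPM (SD, n = 2 each), and an SD over 2 libraries is too uncertain to judge that gap by. Its log2 fold change was 0.97 ± 0.24 on polysomes (edgeR adjusted p = 0.143, and 0.0216 with the block) and 0.65 ± 0.24 in total RNA (0.298, and 0.0922). All 5 eIF2B subunits were above 0 in both RNAs under TMM, RLE and upper-quartile scaling, with medians of 0.65 and 0.62, and Eif2b2 was highest in total RNA at 0.89 ± 0.31 (0.268, and 0.0584 with the block). Eif2b5 had the smallest values of the 5, 0.45 ± 0.34 and 0.41 ± 0.34.

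Eif2s1, the eIF2 subunit whose phosphorylation restrains initiation, stood at 51.8 and 66.1 CPM in WT total and 54 and 104 in AUF1 total, with overlap, and at 47.2 and 54.1 in WT polysome and 91.4 and 101 in AUF1 polysome, without overlap. The log2 fold changes were 0.42 ± 0.36 (edgeR adjusted p = 0.713) and 0.92 ± 0.36 (0.322, and 0.044 with the block). The difference between the 2 fold changes was 0.50 ± 0.51 and did not pass (adjusted p = 1).

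In the elongation group, Eef1b2 was higher with AUF1 by 0.64 ± 0.30 in total RNA and by 0.81 ± 0.30 on polysomes (edgeR adjusted p = 0.424 and 0.293, and 0.107 and 0.0436 with the block). Eef1e1 stood at 31.5 and 35.3 CPM in WT total, 50.4 and 55 in AUF1 total, 27.3 and 41.9 in WT polysome and 59.8 and 72.3 in AUF1 polysome. Its fold changes were 0.66 ± 0.30 and 0.93 ± 0.30 (0.411 and 0.24, and 0.103 and 0.0288 with the block). The main factors had values nearer 0, Eef1a1 of 0.07 ± 0.24 and 0.25 ± 0.24 and Eef2 of 0.39 ± 0.22 and 0.03 ± 0.22, while Eef2k had -0.34 ± 0.37 and -0.53 ± 0.37.

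In the eIF4 group the median was 0.17 in total RNA and 0.15 on polysomes, below those of eIF3 and eIF2B, a difference that was not tested. Eif4e2, a cap-binding protein that represses the mRNAs it holds, stood at 228 and 266 CPM in WT total and 414 and 377 in AUF1 total, and at 241 and 346 in WT polysome and 396 and 500 in AUF1 polysome. It did not overlap in either RNA and had fold changes of 0.68 ± 0.28 and 0.61 ± 0.28 (edgeR adjusted p = 0.362 and 0.405). Eif4e itself had -0.13 ± 0.33 and 0.17 ± 0.33. Eif4ebp1, the repressor that mTORC1 switches off, stood at 184 and 207 CPM in WT total and 339 and 323 in AUF1 total, a fold change of 0.76 ± 0.49, but its polysome values of 142 and 324 in WT and 193 and 407 with AUF1 overlapped and followed the replicate number. Eif4ebp2 had 0.46 ± 0.28 and -0.00 ± 0.28, Eif4g1 0.66 ± 0.30 and 0.21 ± 0.30, Eif4g2 -0.10 ± 0.38 and 0.06 ± 0.38, Eif4a1 0.06 ± 0.29 and 0.35 ± 0.29, and Eif4a2 0.17 ± 0.32 and 0.58 ± 0.32, none of which passed.

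Among the remaining factors, Eif6 stood at 173 and 135 CPM in WT total and 323 and 197 in AUF1 total, 0.76 ± 0.30 higher (edgeR adjusted p = 0.35, and 0.0847 with the block), and at 182 and 190 in WT polysome and 256 and 265 in AUF1 polysome, 0.49 ± 0.30 higher (0.578). Eif5a had 0.53 ± 0.30 and 0.14 ± 0.30. Eif1ad had the smallest p of the eIF1 group, with 0.70 ± 0.31 and 0.58 ± 0.30. On the other side lay Eif5a2 at -0.86 ± 0.51 and -0.43 ± 0.51 and, of the Argonaute genes, Eif2c4 at -0.81 ± 0.28 and -0.62 ± 0.27, while Eif2c2 had 0.85 ± 0.46 and 0.86 ± 0.46.

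**Figure D4:**
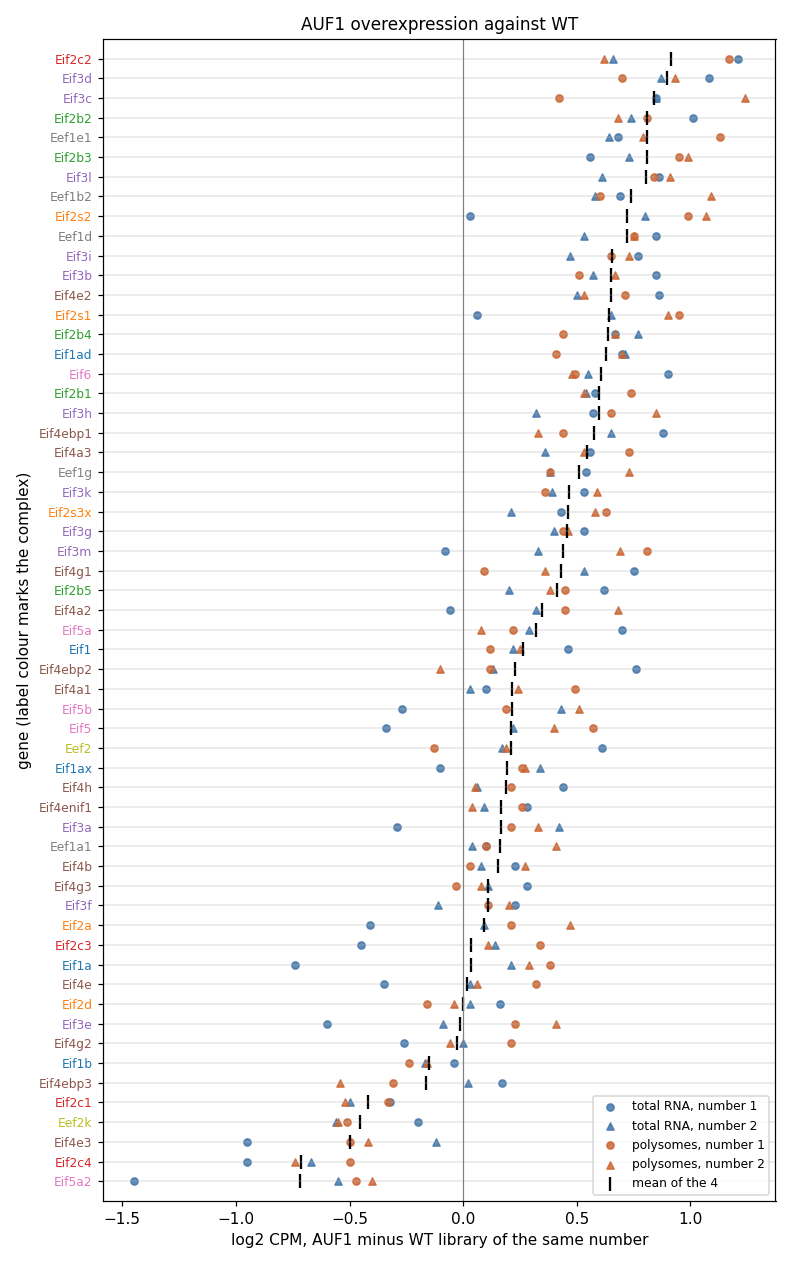
Log2 CPM of the AUF1 library minus the WT library of the same RNA and number, for 58 genes ordered by the mean of the 4 differences (black bar), with blue for total RNA, orange for heavy polysomes, circles for number 1 and triangles for number 2. Eif3d, Eif2b2, Eif2b3, Eef1e1 and Eif3l have all 4 points above 0, and Eif2c4, Eif5a2, Eef2k and Eif2c1 all 4 below.

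The interaction asks whether the AUF1 difference on polysomes departs from that in total RNA. For the members it lay between -0.48 and 0.58 with a median of 0.04 (-0.02 over all tested genes) and a median SE of 0.43. It was called for 0 members, as against 0% of all genes by edgeR and 0% by DESeq2, and 0 members had an unadjusted p under 0.05, as against 0.122% of all genes. The members with the smallest p in their complexes were Eef2 (-0.37 ± 0.31), Eif4ebp2 (-0.46 ± 0.39), Eif3m (0.57 ± 0.56), Eif2s1 (0.50 ± 0.51), Eif2b3 (0.32 ± 0.33), Eif5a (-0.38 ± 0.43), Eif1a (0.47 ± 0.60) and Eef1e1 (0.27 ± 0.42).

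In total RNA several members differed more between the replicate numbers than between the genotypes. Eif3a, the largest eIF3 subunit, stood at 164 and 312 CPM in WT total and 134 and 419 in AUF1 total, but at 243 and 203 in WT polysome and 281 and 254 in AUF1 polysome. Its sign depended on the number, with polysome minus total above 0 in number 1 and below 0 in number 2 of both genotypes. Eif5b, which joins the ribosomal subunits, had the same signs, at 50.9 and 109 CPM in WT total, 42.1 and 147 in AUF1 total, 71.4 and 60.8 in WT polysome and 81.2 and 86.8 in AUF1 polysome. Eif2s2 was lower in number 1 in all 4 groups, at 45.1 and 96.9, 46 and 169, 69.3 and 108, and 138 and 228 CPM in the same order of groups. On polysomes, however, its AUF1 difference was larger (0.99 within number 1 and 1.07 within number 2) than its difference between numbers (-0.64 in WT and -0.72 with AUF1). Its polysome fold change with AUF1 was the highest of the members, at 1.04 ± 0.69 (edgeR adjusted p = 0.61, and 0.0545 with the block).

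Over the 58 members the difference between numbers correlated at r = 0.87 between the 2 total groups and 0.78 between the 2 polysome groups, but at 0.04 to 0.13 between a total and a polysome group. These are descriptions over genes of the same 8 libraries. In all 4 groups 20 members were lower in number 1 (34.5%, and 21.8% of all tested genes) and 5 were higher (8.62%, and 26%).

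**Figure D5:**
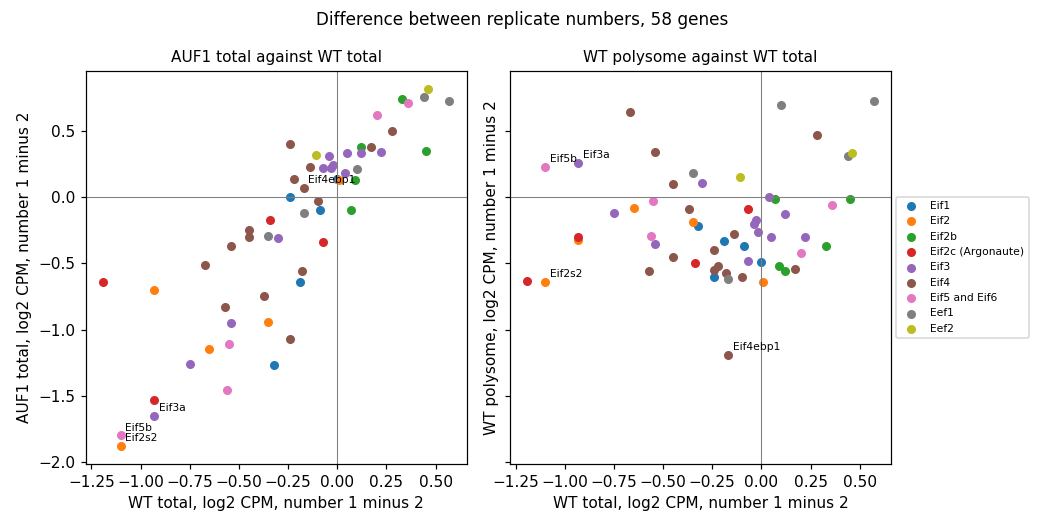
Log2 CPM of replicate number 1 minus number 2 for 58 genes, coloured by complex, with WT total on both x axes and AUF1 total (left) or WT polysome (right) on the y axis. The left panel rises along a diagonal, with r = 0.87, and the right panel shows no such line, with r = 0.13.

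Of 7 paralog pairs with a ratio in every library, 3 had ratios that did not overlap between the genotypes. Per kb of exon, Eif5a exceeded Eif5a2, its relative of restricted expression, by 78 and 45.7 times in WT total, 350 and 82 in AUF1 total, 51.5 and 56.2 in WT polysome and 82.7 and 78.3 in AUF1 polysome, so all 4 AUF1 ratios lay above all 4 WT ratios, by 78.3 against 78 at the nearest. Eif4e stood at 0.287 and 0.279 of the level of Eif4e2 in WT total, 0.124 and 0.201 in AUF1 total, 0.263 and 0.271 in WT polysome and 0.199 and 0.196 in AUF1 polysome, lower with AUF1 without overlap. Eif1 exceeded Eif1b by 2.59 and 3.07 times in WT total, 3.67 and 4.02 in AUF1 total, 2.91 and 3.13 in WT polysome and 3.74 and 4.17 in AUF1 polysome, though 31.6% of the 50-base stretches of Eif1 occur in other genes. The ratios of Eif4a1 to Eif4a2, Eif4g1 to Eif4g3, Eif4ebp1 to Eif4ebp2 and Eif1a to Eif1ax overlapped. These ratios carry no test. How often ratios of other gene pairs separate in this way was not counted, so the 3 pairs describe this list alone. Eef1a2, the isoform that replaces Eef1a1 in mature muscle, was not detectable beyond 1 count in 7 of the 8 libraries.

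Genes that work beside the factors were counted in 7 fixed lists, and 0 genes of any list were called in any of the 6 comparisons by edgeR without the block. All 22 cytosolic tRNA synthetases and their cofactors, which load amino acids on tRNA, were above 0 with AUF1 in total RNA (median 0.90) and on polysomes (median 0.82), as against 50.2% and 50.1% of all genes with medians of 0.00. With the block 12 and 11 were higher, as against 6.99% and 6.7% of all genes. On polysomes against total RNA all 22 lay below 0 (median -0.55), where 51% of all genes lay above 0, and 3 were lower with the block (Aars, Cars and Qars), as against 1.48%. Of 17 genes of mTORC1 and eIF4E signalling, 15 were above 0 with AUF1 in total RNA (median 0.52), and with the block Rptor, the scaffold of mTORC1, Akt2 and Sesn2 were higher (6.99% of all genes) and Sesn1 lower (6.15%), while on polysomes Rptor and Deptor were higher (6.7%). With the block the list of 9 termination and recycling factors gave 1 call (Mcts2, higher on polysomes with AUF1) and the 8 tested mitochondrial factors 1 (Tufm, higher in total RNA). The 10 genes of poly(A) binding and the closed loop, the 8 eIF2 kinases and phosphatase genes and the 5 of selenoprotein elongation gave 0 with the block in all 6 comparisons.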

How the data were processed

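The authors deposited a table of unnormalized counts by gene symbol for the 8 libraries. Its 5 summary lines were dropped: reads in no gene were 6.04% to 7.23% and ambiguous ones 0.254% to 0.389%. Tools listed in the submitters' processing notes are STAR, Bowtie, cutadapt, Trimmomatic and SAMtools, with the build mm10. No source used here gives the counting program or its strand setting.

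Genes kept by filterByExpr were scaled by TMM and tested in edgeR 4.0.16 (R 4.3.3) by the quasi-likelihood F test, two-sided, on all 8 libraries with 1 coefficient per group. Benjamini-Hochberg adjustment ran over all tested genes, with calls under 0.05. Each SE was taken as |log2 fold change| divided by the root of F, and SD is over 2 libraries. CPM are counts scaled to TMM-adjusted totals. The 8 libraries held 25281224 to 34917660 counts, so counting error is small for all but the rarest members.

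The title numbers the replicates 1 and 2 in every group, whereas the sample descriptions call the second one replicate 3. Labels do not say what a number shares, so the libraries were not treated as pairs. The number was fitted as a block beside the main model (4 residual degrees of freedom, 3 with the block). In the first look at the data both fits' calls were seen together. Other alternatives were scaling, filters, DESeq2 1.42.0 and leaving out each library. The scripts were tested on simulated data.

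The members, lists and tests were chosen with earlier results of these data known. Text names 18 members whatever their result, those called, the smallest p per complex and comparison, and the highest and lowest level per complex. Others named were chosen after their values were seen. Positions come from GENCODE M21 for all 63 members, and start windows from RefSeq for 48. The share of 50-base stretches found in other genes was counted in the GENCODE transcripts.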

Additional observations from a re-analysis of the deposited data

Results flagged for a closer look

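Eef1a2 and Eif2s3y are 2 members that failed the low-count filter and yet gave a signal in 1 library. Eef1a2 had 125 counts in WT polysome replicate 1 and 0 or 1 in each of the other 7 libraries. Eif2s3y had 32 counts there and 0 elsewhere. In the same library the Y-linked Ddx3y had 40 counts, Kdm5d 13 and Uty 6, all 3 at 0 elsewhere. Genes of other kinds were seen there too, among them Lum (113 counts), Krt79 (71), Krt5 (48) and Epcam (31), each with at most 2 counts over the other 7 libraries together. The source of these counts was not tested.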

How the results depend on the processing

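Without the replicate block, edgeR called 0 members in all 6 comparisons under TMM, RLE and upper-quartile scaling, with no low-count filter or a stricter one, and without each of the 8 libraries in turn. With the replicate block the calls were 2 (AUF1 against WT, total), 6 (AUF1 against WT, polysomes) and 8 (polysome against total, both genotypes), and 0 in the other 3. DESeq2 gave 1, 1 and 8 for these, 1 for polysome against total with AUF1 and 0 for the other 2. Leaving out 1 library with the replicate block gave 0 to 15 calls (5 without WT polysome replicate 1 or 2), 0 to 17 and 0 to 22 (9 without WT polysome replicate 2, 10 without AUF1 total replicate 1), 0 to 1 for polysome against total in WT and 0 to 11 with AUF1. In such fits a lone library is assumed to vary like the other groups. A block within each fraction was added after the data were seen, because the members' number differences correlated only within a fraction. It gave 23, 27 and 25 members (3603, 3559 and 2326 of all genes), 7 for polysome against total in WT and 17 with AUF1. The counts of 7 and 17 have no count of all genes beside them. Whether they exceed the share of all genes therefore cannot be read. The cause of the number differences was not tested. With each number counted within its fraction, far more genes of all kinds pass, so the blocked calls depend on how the number is modelled. Number differences correlated across genes between groups, but 2 numbers cannot show what they share. The 89 results recomputed under alternative settings were fold changes of single members, medians, call counts and ratios. A change of direction was looked for in the single members only, where it was found 0 times under the 23 settings. These members were picked by their p with the block, so this says nothing of the others. Medians of the members did change sign: without WT total replicate 2, polysome against total went from -0.06 to 0.06 and the interaction from 0.04 to -0.05. The largest shift of all genes' median by another scaling was to -0.06.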
